A study of Mus musculus with 6 samples.

Results

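Members of the bone morphogenetic protein (BMP) pathway were followed in cultured muscle stem cells (MuSCs): the ligands Bmp2, Bmp4, Bmp6 and Bmp7, the antagonist Nog, the receptor Bmpr1a, the inhibitory SMAD gene Smad6 and the ID genes Id1, Id2 and Id3. The 10 members were the rows with these gene symbols among the 18943 genes of the expression table, and every one of them had a row. MuSCs of C57BL/6 mice, wild type and 8 weeks old, were purified by FACS and grown in vitro for 5 days. The culture received the solvent DMSO, endothelin-3 (ET-3, a peptide ligand of endothelin receptors) or neurotensin (NT, a peptide ligand of neurotensin receptors), with 2 libraries per group. The labels give 100 nM for both peptides, while the study's methods give higher concentrations for the cultures. The labels also name another library kit than the methods do, and the design text speaks of triplicates, of which 2 per group were analysed here. The study speaks of biological samples, but the labels do not say whether the libraries of a group came from separate animals or cultures, and the p-values measure the spread between these libraries, which may be technical.

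BMP ligands are secreted growth factors that bind paired type I and type II receptor kinases at the cell surface. The type I receptor, such as BMPR1A, phosphorylates SMAD1, SMAD5 and SMAD9, which enter the nucleus with SMAD4 and switch on target genes. The ID genes are well-known direct targets, and their proteins bind E proteins and so keep myogenic factors such as MYOD1 from pairing with them on DNA. NOG traps ligands outside the cell, and SMAD6 blocks the signal inside it and is itself a target, so that the pathway carries its own brakes. In MuSCs, BMP signalling is known to favour proliferation of committed cells over terminal differentiation.

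Promoter sequences of the 3 members whose change with both peptides bears on signal reception or output, and which have sequence free of annotated exons, are shown so that the letters before the start of each gene can be read beside its values. They come from RefSeq on GRCm38 (mm10), where 6 of the 10 members matched a window, and are given 5′ to 3′ on the gene's own strand, limited to the part of the 250 bases upstream of the start that lies outside GENCODE exons. Capitals mark matches, on either strand, to the E-box CANNTG, which MYOD1 and E proteins recognise, to the palindrome GGCGCC and the longer GCCGNCGC, both GC-rich motifs bound by SMAD1 and SMAD5, or to GTCT, the short SMAD-binding element. The Id2 stretch is chr12:25096254-25096342 (minus strand), the Bmpr1a stretch is chr14:34502688-34502796 (minus strand) and the Smad6 stretch is chr9:64022060-64022309 (minus strand).
Id2: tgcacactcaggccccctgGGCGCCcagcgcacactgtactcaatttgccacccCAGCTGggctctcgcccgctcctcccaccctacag
Bmpr1a: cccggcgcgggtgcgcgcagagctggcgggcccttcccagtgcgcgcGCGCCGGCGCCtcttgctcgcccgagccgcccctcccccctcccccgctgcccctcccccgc
Smad6: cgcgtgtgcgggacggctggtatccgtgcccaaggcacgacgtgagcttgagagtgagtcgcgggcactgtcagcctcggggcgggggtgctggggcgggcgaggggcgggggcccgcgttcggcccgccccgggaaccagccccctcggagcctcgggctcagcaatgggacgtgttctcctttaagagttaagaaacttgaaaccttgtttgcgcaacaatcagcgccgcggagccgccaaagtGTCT
Positions count back from -1, the base before the RefSeq start, and the Id2 and Bmpr1a stretches lie within the genes' annotated spans, between exons of other transcripts. The Id2 stretch held 1 GGCGCC at -231 and 1 E-box at -196. In the Bmpr1a stretch, 1 GGCGCC at -198 overlapped 2 matches to GCCGNCGC. The Smad6 window held a single GTCT at -4 and no match to the other 3 motifs. Of the 32536 RefSeq windows of this length, 66.2% held an E-box, 9.65% a GGCGCC, 82.9% a GTCT and 6.95% a GCCGNCGC. These matches describe the letters in the windows and are neither binding sites nor causes.

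The values used are the deposited whole numbers, which are read counts multiplied by 1 scaling factor per library and rounded. They summed to between 4214458 and 4600575 per library, corresponding to between 3628891 and 5396233 reads on genes. At a value of 100, counting alone gave a relative error of 8.84% to 10.92%. Changes are given as log2 fold changes of value + 1 with standard errors (SE), fitted with limma over all 6 libraries and over 13921 genes whose mean was 5 or more, and p-values were adjusted over those genes by the Benjamini-Hochberg method. A gene was called where the adjusted p was at most 0.05 and the change at least 2-fold. The 2 DMSO libraries served both peptides as control, so the 2 comparisons with DMSO are not independent. The 2 ET-3 libraries, and likewise the 2 NT libraries, differed by no more than the sampling noise of reads (mean chi-square per gene 0.894 and 0.967, against 1.44 for the DMSO pair). With each treated pair counted as 1 sample, Bmp6, Nog and Id2 still passed by the adjusted p against DMSO (0.0221 to 0.042, limma with Benjamini-Hochberg adjustment), and the other members did not. The MuSC markers were detected in every library, with a summed value of 6688 to 8185 over the list, but they moved in both directions. By the adjusted p alone 3 of these 7 rose and 2 fell with ET-3, beside 30.6% and 33.2% of all tested genes. With NT 3 rose and 4 fell, beside 29.7% and 32.5%. Cdh15 was called lower with both (log2 -1.80 and -1.82), and Pax7 rose with both (log2 0.86 and 0.76). The 8 markers of differentiating muscle were called lower with both peptides in 8 of 8 cases, beside 14.9% and 13.2% of all tested genes. Their sums went from 14457 and 16007 with DMSO to between 310 and 450. Ckm and Myh8 among them reached a mean of 5 through the DMSO libraries alone. In such bulk libraries, fewer cells of a type and less RNA per cell cannot be told apart.

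Of the 10 members, 9 passed the filter on low values, Bmp7 being the exception, and Bmp6 passed it through the treated libraries alone. With ET-3, Bmp6 was called higher and Nog lower, beside 6.62% of all tested genes called higher and 14.9% called lower. By the adjusted p alone, Bmp6, Id1 and Id2 rose and Nog, Bmpr1a and Smad6 fell with ET-3, beside 30.6% of all tested genes that rose and 33.2% that fell. With NT, Bmp4 and Bmp6 were called higher and Nog lower, beside 7.3% and 13.2% of all tested genes. By the adjusted p alone, Bmp4, Bmp6 and Id2 rose and Nog, Bmpr1a, Smad6 and Id3 fell with NT, beside 29.7% and 32.5% of all tested genes. The median log2 change over the 9 members was 0.22 with ET-3 and -0.065 with NT, against -0.01 and -0.014 over all tested genes, and the NT median turned to 0.029 after scaling by library total. The counts in each direction, 3 or 4 of 9 members by the adjusted p alone, stood near the shares of all genes.

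**Figure D1:**
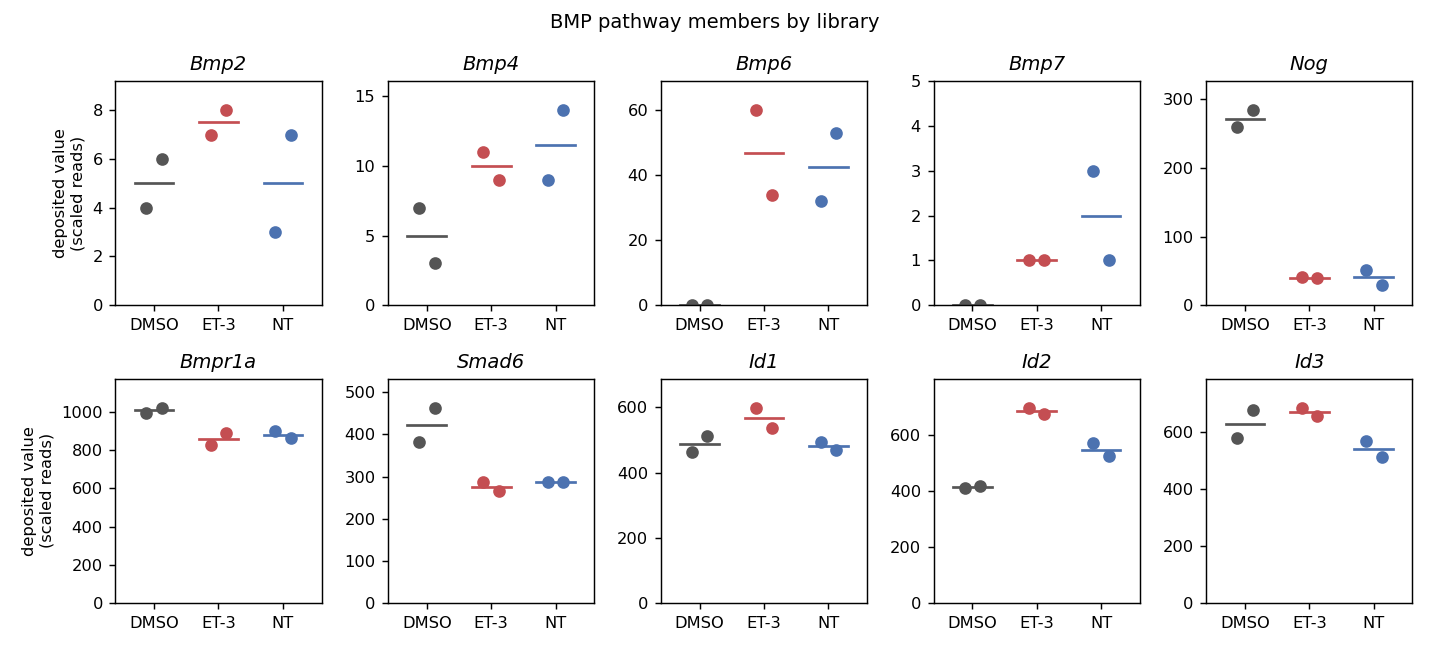
Deposited value of each of the 10 members in each library, one panel per gene and each with its own vertical axis starting at 0, with points for the 2 libraries of DMSO, ET-3 and NT and a bar at their mean. Bmp6 was listed at 0 in both DMSO libraries and between 32 and 60 in the treated ones, Nog lay at 259 and 284 against 30 to 51, and Id2 at 411 and 418 against 522 to 695.

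Among the ligands, Bmp6 rose with both peptides and Bmp2, Bmp4 and Bmp7 stayed at low values. Bmp6 encodes a ligand known from iron homeostasis and endothelial cells, and the gene (ENSMUSG00000039004) lies on the plus strand of chromosome 13 of GRCm38 at 38345107 to 38500302. Its values were 0 and 0 in the DMSO pair, 60 and 34 in the ET-3 pair, and 32 and 53 in the NT pair. Every treated library lay above both controls, while the ET-3 and NT libraries overlapped. Set against the value that 3 reads give in a DMSO library, 3.2 on average, Bmp6 was at least 14.7-fold higher with ET-3 and at least 13.3-fold higher with NT. The fitted changes were 5.53 (SE 0.392) with ET-3 and 5.40 (SE 0.392) with NT on the log2 scale (limma, Benjamini-Hochberg adjusted p = 1.07e-06 and 1.39e-06), and since both controls were at 0 their size depends on the pseudocount.

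Parts of Bmp6 share their position with an exon of Txndc5, a gene on the opposite strand that encodes a disulfide isomerase of the endoplasmic reticulum, and reads from the 2 genes cannot be told apart where strand was not used. Txndc5 had values of 833 and 858 in the DMSO pair, 1138 and 1073 in the ET-3 pair, and 952 and 933 in the NT pair. Its log2 changes were 0.39 and 0.16 (limma, Benjamini-Hochberg adjusted p = 4.94e-05 and 0.0144), and its part in the Bmp6 value was not tested.

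Some endothelial markers rose in the same libraries as Bmp6. Of the 7 endothelial markers 6 had a row and 4 were tested, of which 2 were called higher with ET-3 and 3 with NT, beside 6.62% and 7.3% of all tested genes. Tek and Pecam1 were among the called genes, and both passed the filter on low values through the treated libraries. The 6 markers together summed to 36 and 22 in the DMSO pair, 115 and 111 in the ET-3 pair, and 98 and 126 in the NT pair. Tek, the angiopoietin receptor, carried most of the rise in this sum, with 2 and 1, 68 and 59, and 42 and 70. Kdr, a VEGF receptor, had values of 16 and 6, 24 and 25, and 26 and 23 in the DMSO, ET-3 and NT pairs and was called higher with both (2.34-fold and 2.33-fold, limma, Benjamini-Hochberg adjusted p = 0.0201 and 0.0209). Pecam1, with 6 and 3, 10 and 7, and 15 and 9, was called higher with NT (log2 1.26, limma, Benjamini-Hochberg adjusted p = 0.0283) and had a log2 change of 0.83 with ET-3 (adjusted p = 0.122). Of the remaining markers, Egfl7 lay between 10 and 17, Cdh5 (VE-cadherin) between 0 and 5 and Esam between 0 and 2 in the 6 libraries. The part of endothelial cells in the Bmp6 value was not tested.

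Bmp4 (ENSMUSG00000021835), a ligand with broad roles in mesoderm, lies on chromosome 14 at 46383520 to 46390669. It had values of 7 and 3 in the DMSO pair, 11 and 9 in the ET-3 pair, and 9 and 14 in the NT pair. All treated values lay above the controls, but they correspond to few reads. The log2 change was 1.11 (SE 0.434) with NT, which passed the threshold (limma, Benjamini-Hochberg adjusted p = 0.0464), and 0.95 with ET-3, which did not (adjusted p = 0.0791). The NT call was lost in 11 of 15 alternative settings. With a pseudocount of 5 the change was 0.74, under 2-fold, and in 10 settings the adjusted p did not pass (0.0231 to 0.263 over all of them), among them without any 1 library other than the first DMSO library. Without the second DMSO library the change was 0.61 (limma, Benjamini-Hochberg adjusted p = 0.221). Without the first DMSO library, the ET-3 change was 1.45 and passed (adjusted p = 0.0301).

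Bmp2 (ENSMUSG00000027358), the close relative of Bmp4, lies on chromosome 2 at 133552159 to 133562885 and had values of 4 and 6 in the DMSO pair, 7 and 8 in the ET-3 pair, and 3 and 7 in the NT pair. The NT values overlapped those with DMSO, and neither change passed the test (log2 0.52 with ET-3 and -0.07 with NT, limma, Benjamini-Hochberg adjusted p = 0.34 and 0.909). Bmp7 (ENSMUSG00000008999), which lies on the same chromosome at 172868012 to 172940321, was listed at 0 and 0 in the DMSO pair, 1 and 1 in the ET-3 pair, and 3 and 1 in the NT pair. These values correspond to about 3 reads or fewer per library and were not tested.

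The antagonist Nog fell with both peptides. Nog (ENSMUSG00000048616) encodes noggin, which binds several BMP ligands and keeps them from their receptors, and lies on the minus strand of chromosome 11 at 89300638 to 89302332. It had values of 259 and 284 in the DMSO pair, 41 and 39 in the ET-3 pair, and 51 and 30 in the NT pair. The groups with and without peptide did not overlap, and the treated libraries lay within one range. The log2 changes were -2.73 with ET-3 and -2.76 with NT, each with SE 0.22 (limma, Benjamini-Hochberg adjusted p = 2.64e-06 in both). Over the alternatives the change ran from -2.80 to -2.62 with ET-3 and from -3.13 to -2.39 with NT.

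Bmpr1a (ENSMUSG00000021796), the type I receptor whose promoter is shown above, lies on the minus strand of chromosome 14 at 34410734 to 34503341. It had values of 998 and 1022 in the DMSO pair, 828 and 891 in the ET-3 pair, and 899 and 863 in the NT pair. All 4 treated libraries lay below both controls, by a small margin. The receptor fell by 0.23 (SE 0.05) with ET-3 and by 0.20 with NT on the log2 scale (limma, Benjamini-Hochberg adjusted p = 0.00227 and 0.00631). After scaling by library total, the NT change shrank to -0.08 and no longer passed (limma, Benjamini-Hochberg adjusted p = 0.153), nor did it without the second DMSO library (-0.18, adjusted p = 0.0696) or the second NT library (-0.17, adjusted p = 0.0727). The gene Gm17110 overlaps Bmpr1a and had values of 1 to 7 in the 6 libraries.

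Smad6 (ENSMUSG00000036867), the intracellular inhibitor, lies on the minus strand of chromosome 9 at 63953076 to 64022059. It had values of 383 and 463 in the DMSO pair, 286 and 266 in the ET-3 pair, and 286 and 287 in the NT pair. Both controls lay above all treated libraries, and the treated values were close together. Smad6 fell by 0.61 (SE 0.087) with ET-3 and by 0.55 with NT on the log2 scale (limma, Benjamini-Hochberg adjusted p = 0.000164 and 0.000328), short of a 2-fold change.

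Of the 3 ID genes, Id2 rose with both peptides, Id1 rose with ET-3 and Id3 fell with NT. Id2 (ENSMUSG00000020644), which lies on the minus strand of chromosome 12 at 25093799 to 25097140, had values of 411 and 418 in the DMSO pair, 695 and 675 in the ET-3 pair, and 570 and 522 in the NT pair. The 3 groups did not overlap. Id2 rose 1.65-fold with ET-3 (log2 0.72, SE 0.056, 95% confidence interval 0.60 to 0.85, limma, Benjamini-Hochberg adjusted p = 2.02e-06) and 1.32-fold with NT (log2 0.40, 0.27 to 0.52, adjusted p = 0.000155). Both passed in all 15 alternative settings, in which the log2 change ran from 0.70 to 0.81 and from 0.33 to 0.51, and neither reached 2-fold.

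Id1 (ENSMUSG00000042745), often used as a read-out of BMP signalling, lies on the plus strand of chromosome 2 at 152736251 to 152737410. It had values of 462 and 512 in the DMSO pair, 598 and 537 in the ET-3 pair, and 494 and 468 in the NT pair. Both ET-3 libraries lay above both controls, and the NT libraries lay within the range of the controls. The log2 change was 0.22 (SE 0.07) with ET-3 (limma, Benjamini-Hochberg adjusted p = 0.0193), under 2-fold and thus not called, and it no longer passed the adjusted p in 5 of 15 alternatives, among them without the first DMSO library (adjusted p = 0.199) and without the first ET-3 library (adjusted p = 0.192). With NT the change was -0.02 (limma, Benjamini-Hochberg adjusted p = 0.851), and 0.10 with each library scaled to its total.

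Id3 (ENSMUSG00000007872), the ID gene next in level, lies on the plus strand of chromosome 4 at 136143497 to 136145755. It had values of 582 and 678 in the DMSO pair, 686 and 656 in the ET-3 pair, and 569 and 513 in the NT pair. The ET-3 libraries overlapped the controls, while both NT libraries lay below them. The log2 change was 0.10 with ET-3, which did not pass (limma, Benjamini-Hochberg adjusted p = 0.305), and -0.22 with NT, which did (adjusted p = 0.0312). After scaling by library total the ET-3 change passed (0.18, adjusted p = 0.0428) and the NT change did not (-0.10, adjusted p = 0.226), and the NT change no longer passed in 10 of 15 alternatives, among them without the second DMSO library (-0.11, limma, Benjamini-Hochberg adjusted p = 0.303) or the second NT library (-0.14, adjusted p = 0.269), and without either ET-3 library (adjusted p = 0.087 and 0.0856).

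**Figure D2:**
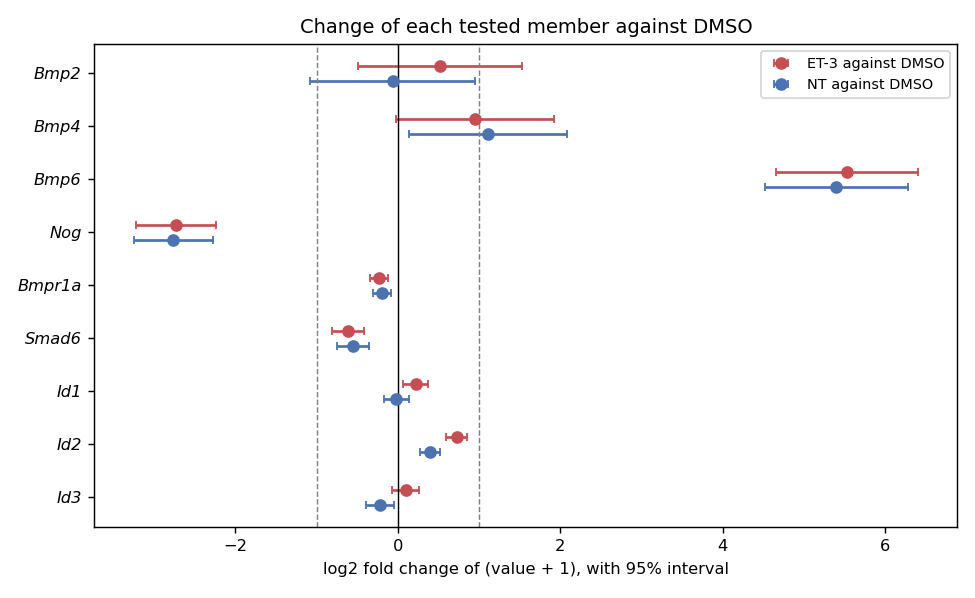
Log2 fold change of each tested member against DMSO for ET-3 and NT, with 95% confidence intervals from limma on the horizontal axis, dashed lines at a 2-fold change and the 9 tested members on the vertical axis. Bmp6 lies far to the right at 5.53 and 5.40, Nog to the left at -2.73 and -2.76, and the remaining members within 1.2 of 0.

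The peptides were then compared with each other. By limma with the 2-fold criterion 0 members were called, also with voom weights, while 3 members, the ID genes, had an unadjusted p under 0.05. By the adjusted p alone 1 member, Id2, differed between NT and ET-3, beside 2.69% of all tested genes. Id2 was lower with NT than with ET-3 by 0.33 on the log2 scale (-0.33, SE 0.056, limma, Benjamini-Hochberg adjusted p = 0.0379), a difference lost in 10 of 15 alternatives, including without any 1 of the 6 libraries (adjusted p = 0.145 to 0.459). Id1 and Id3 also had both NT values below both ET-3 values, with log2 differences of -0.24 and -0.31 that did not pass (adjusted p = 0.106 and 0.0628). With each treated library's trend against value per exonic base removed, a setting chosen after seeing the data, the differences were -0.16 for Id2, 0.04 for Id1 and -0.09 for Id3 (limma, Benjamini-Hochberg adjusted p = 0.29, 0.849 and 0.66). For the 4 other members that passed by the adjusted p with both peptides, the log2 differences between NT and ET-3 were -0.13 for Bmp6, -0.03 for Nog, 0.04 for Bmpr1a and 0.06 for Smad6 (adjusted p = 0.903, 0.967, 0.745 and 0.787). Missing the threshold does not show that the peptides act alike on these genes.

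Levels were compared between genes per kilobase of exonic length, which removes the effect of gene length on read number. With DMSO the order of the mean value per kilobase was Id1 at 420, Id3 at 352, Id2 at 170, Nog at 160, Bmpr1a at 159, Smad6 at 132, Bmp4 at 2.22 and Bmp2 at 1.41, with Bmp6 and Bmp7 at 0. Nog and Bmpr1a, Bmp4 and Bmp2, and Bmp6 and Bmp7 overlapped in the DMSO libraries and had no order there. With ET-3 the order was Id1 at 489, Id3 at 375, Id2 at 281, Bmpr1a at 135, Smad6 at 86.1, Nog at 23.6, Bmp6 at 12.1, Bmp4 at 4.45, Bmp2 at 2.11 and Bmp7 at 0.249. With NT the same order held, from Id1 at 415 through Id2 at 224 and Nog at 23.9 to Bmp6 at 10.9 and Bmp7 at 0.498. No neighbours overlapped within the ET-3 or the NT group. Nog thus moved from beside the receptor to a place between Smad6 and the ligands, and Bmp6 from the bottom to the top of the ligands.

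Summed per kilobase, the 4 ligands gave 4.24 and 3.02 in the DMSO pair, 22.5 and 15.2 in the ET-3 pair, and 13.8 and 22 in the NT pair, of which Bmp6 made up 57.3% to 68.4% in the treated libraries. The 3 ID genes summed to 892 and 991 in the DMSO pair, 1180 and 1110 in the ET-3 pair, and 977 and 904 in the NT pair, the NT sums lying within the range of the controls. The share of Id2 in that sum was 18.9% and 17.3% in the DMSO pair, 24.1% and 25% in the ET-3 pair, and 23.9% and 23.7% in the NT pair. Both treatments therefore stood apart from the controls in the share of Id2, while the summed ID level was above the controls with ET-3.

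**Figure D3:**
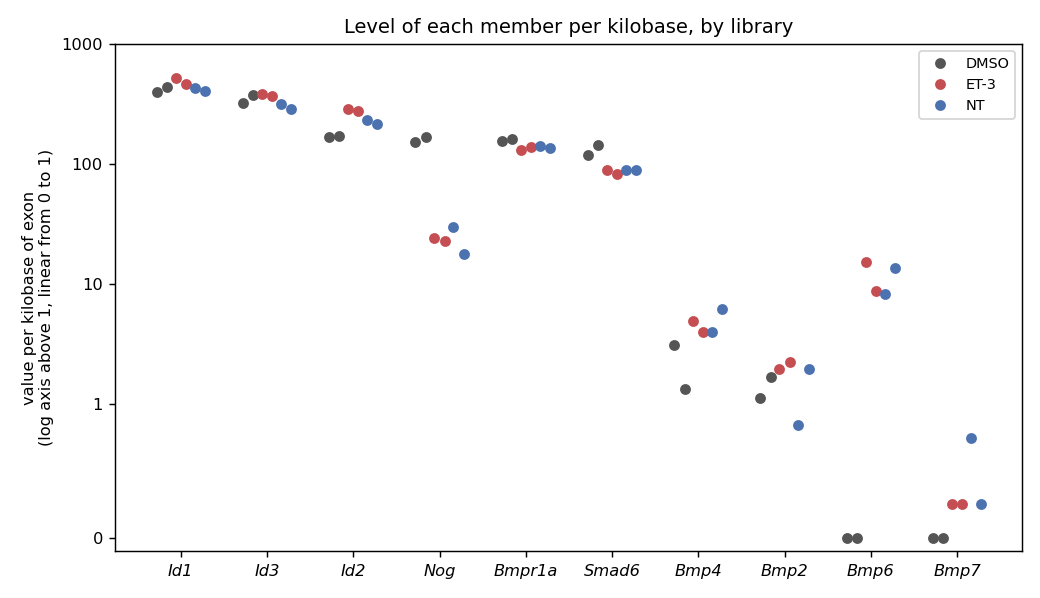
Value per kilobase of exonic length of the 10 members, one point per library coloured by group, on an axis that is logarithmic above 1 and linear from 0 to 1. The ID genes lie at the top, with group means from 170 to 489 per kilobase, and Bmp2, Bmp4, Bmp6 and Bmp7 at the bottom, with at most 12.1 as a group mean.

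The wider pathway was described by gene lists, given by counts and by the median log2 change beside -0.01 with ET-3 and -0.014 with NT over all tested genes. Over all tested genes 6.62% were called higher and 14.9% lower with ET-3, and 7.3% and 13.2% with NT, while by the adjusted p alone 30.6% rose and 33.2% fell with ET-3. For NT the latter shares were 29.7% and 32.5%. The counts of each list stand beside these shares. Of 10 other BMP and GDF ligand genes, 4 had a row and 1 passed the filter on low values. This was Gdf6, a ligand of joint and eye development, with values of 18 and 15 in the DMSO pair, 1 and 0 in the ET-3 pair, and 1 and 2 in the NT pair, and it was lower with both peptides (limma, Benjamini-Hochberg adjusted p = 0.000139 and 0.000772). Like Bmp6 in the other direction, it passed the filter through the group where it was high.

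All 11 other receptor and coreceptor genes were tested, and with each peptide 3 were called higher and 1 lower. By the adjusted p alone 3 rose and 5 fell with ET-3, and 3 rose and 4 fell with NT. The median log2 change was -0.18 with ET-3 and -0.045 with NT, the latter turning to 0.068 with each library scaled to its total. Acvr2b, a type II activin and BMP receptor, had values of 30 and 24 in the DMSO pair, 64 and 75 in the ET-3 pair, and 72 and 84 in the NT pair, and rose with both (log2 1.34 and 1.501, limma, Benjamini-Hochberg adjusted p = 0.000176 and 8.18e-05). Acvrl1, the type I receptor of BMP9 and BMP10 known from endothelium, had values of 6 and 3, 21 and 11, and 18 and 20, and rose by 1.62 and 1.92 on the log2 scale (limma, Benjamini-Hochberg adjusted p = 0.00622 and 0.00245). Tgfbr3 (betaglycan), a coreceptor, rose from 6 and 14 to values of 32 and 38 in the ET-3 pair and 35 and 41 in the NT pair.

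Hjv, the BMP coreceptor hemojuvelin, which muscle fibres express, had values of 694 and 745 in the DMSO pair, 0 and 1 in the ET-3 pair, and 1 and 2 in the NT pair (limma, Benjamini-Hochberg adjusted p = 4.42e-08 and 8.81e-08). The treated values were below the value of 3 reads, and Hjv moved with the markers of differentiating muscle given above. Of the receptors not called, Bmpr2, the main type II receptor, had the highest mean value. It had values of 1496 and 1435 in the DMSO pair, 871 and 958 in the ET-3 pair, and 1075 and 999 in the NT pair (log2 -0.68 and -0.50). Per kilobase, Acvr1, also not called, lay higher. Its group means with DMSO, ET-3 and NT were 118, 98.4 and 104, against 81.5, 50.9 and 57.7 for Bmpr2.

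Other genes listed as antagonists fell as well as rose. Of 15 genes 14 had a row and 13 were tested, of which 1 was called higher and 5 lower with ET-3 (4 lower after scaling by library total), and 1 higher and 4 lower with NT. By the adjusted p alone 4 rose and 6 fell with ET-3, and 5 rose and 5 fell with NT, with median log2 changes of 0.022 and -0.116. Fst, which encodes the activin and BMP antagonist follistatin, had values of 684 and 770 in the DMSO pair, 33 and 30 in the ET-3 pair, and 27 and 24 in the NT pair, and fell by 4.48 and by 4.78 on the log2 scale (limma, Benjamini-Hochberg adjusted p = 4.95e-09 and 4.11e-09). Chrd (chordin) had values of 222 and 286 in the DMSO pair, 1 and 4 in the ET-3 pair, and 3 and 6 in the NT pair (adjusted p = 1.24e-06 and 3.23e-06). Like Nog, Fst and Chrd lay far below the controls in all 4 treated libraries.

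Grem1 (gremlin 1), which binds BMP2 and BMP4, was the antagonist called higher, with 223 and 124 in the DMSO pair, 419 and 376 in the ET-3 pair, and 353 and 374 in the NT pair (log2 1.25 and 1.12, limma, Benjamini-Hochberg adjusted p = 0.000391 and 0.000834). Sost (sclerostin), with 28 and 16, 1 and 0, and 0 and 0 in the DMSO, ET-3 and NT pairs, and Dand5, with 42 and 53, 26 and 19, and 15 and 28, were called lower with both. Sost passed the filter on low values through the DMSO libraries alone, as did Hjv and Chrd, while Acvrl1 passed through the treated ones. Chrdl2 was called lower with ET-3 alone (log2 -1.31, limma, Benjamini-Hochberg adjusted p = 0.015), and its difference between NT and ET-3 did not pass (1.05, adjusted p = 0.177). Fstl1, the antagonist not called with the highest mean value, had values of 506 to 596 in the 6 libraries. Per kilobase, Nbl1, also not called, lay higher, with group means of 271, 275 and 250 against 104, 116 and 120.

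**Figure D4:**
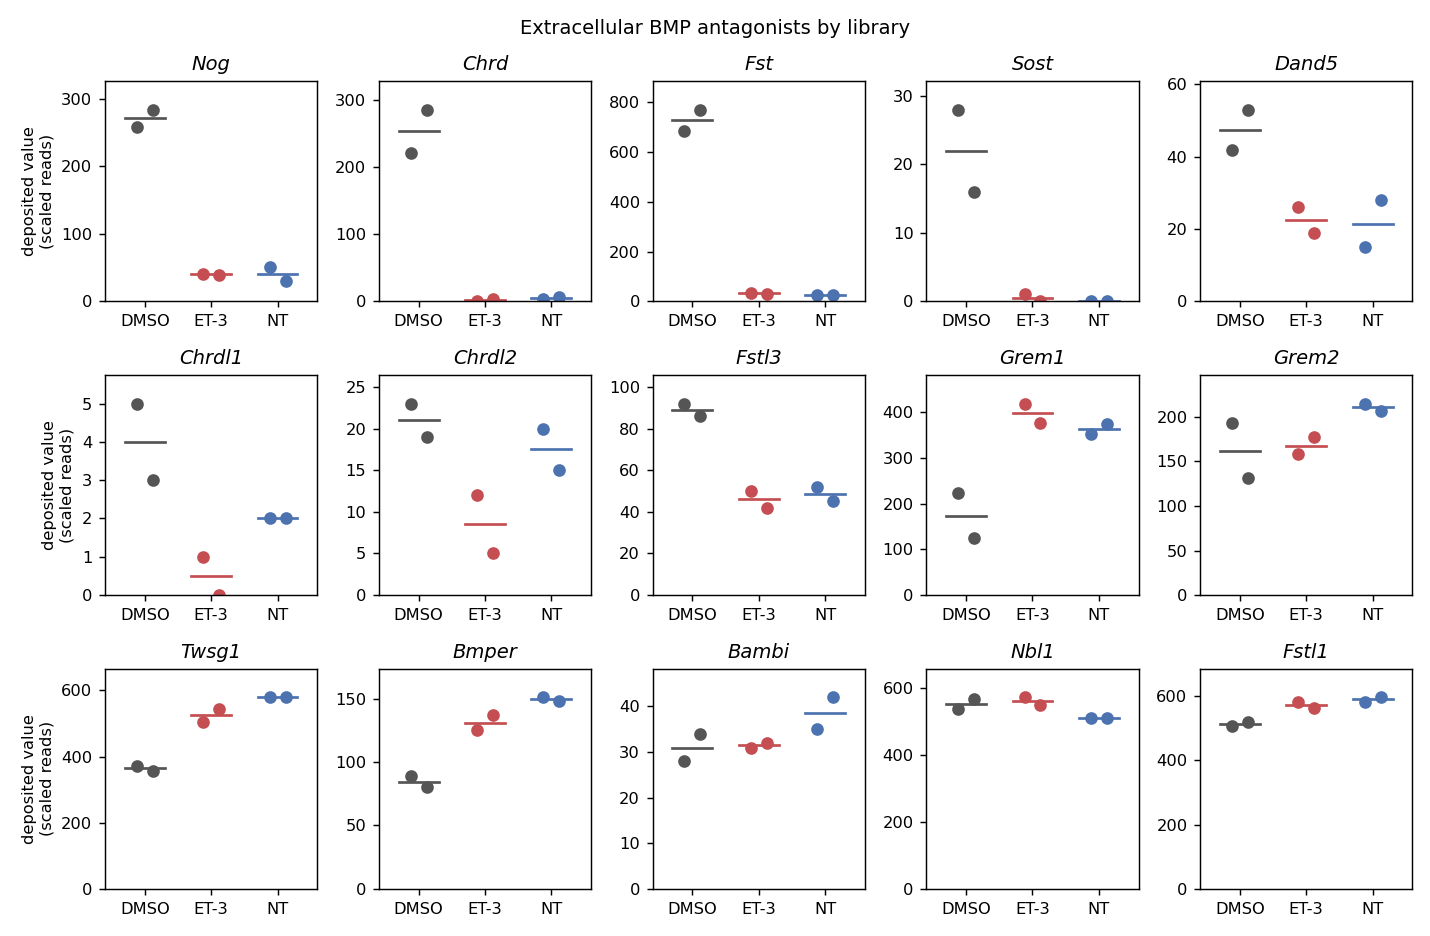
Deposited value in each library of Nog and the 14 other antagonist genes with a row, one panel per gene with its own vertical axis starting at 0 and a bar at the group mean. Nog, Chrd, Fst and Sost lie near 0 or far below DMSO in all 4 treated libraries, and Grem1 lies at 353 to 419 against 223 and 124.

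Among the 11 genes of receptor SMADs, SMAD4, SMAD7 and their regulators, 7 rose and 4 did not pass by the adjusted p alone with each peptide (limma with Benjamini-Hochberg adjustment), beside 30.6% and 29.7% of all tested genes that rose, with medians of 0.28 and 0.233. Smad7, the inhibitory SMAD that restrains both TGF-beta and BMP signals, had values of 402 and 474 in the DMSO pair, 953 and 892 in the ET-3 pair, and 863 and 804 in the NT pair. It rose by 1.08 and 0.93 on the log2 scale (limma, Benjamini-Hochberg adjusted p = 1.05e-06 and 3.19e-06), 2.11-fold and 1.91-fold, and lay just inside the 2-fold threshold with ET-3 and just outside it with NT. Its difference between NT and ET-3 did not pass (-0.15, limma, Benjamini-Hochberg adjusted p = 0.322), and with NT 2 genes of the list were called after scaling by library total and 1 after scaling by upper quartile. Smad6, the other inhibitory SMAD, fell. Smad9, chosen after its values were seen, had values of 94 and 101, 150 and 152, and 197 and 194 (log2 0.63 and 1.00). Skil, the gene of the list not called with the highest mean value, had values of 1278 to 1484. Other genes not called, such as Ski and Tob1, lay higher per kilobase.

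Of 10 other genes known to respond to BMP, 8 had a row and 6 were tested, with 2 that rose and 1 that fell with each peptide and medians of 0.29 and 0.256. Hey1, a target shared with Notch signalling, had values of 279 and 353 in the DMSO pair, 54 and 57 in the ET-3 pair, and 67 and 77 in the NT pair (log2 -2.48 and -2.11, limma, Benjamini-Hochberg adjusted p = 2.41e-07 and 7.92e-07). Runx2, a regulator of bone formation, had the highest mean value of those not called. It had values of 813 and 778, 1135 and 1112, and 1169 and 1104 (log2 0.50 and 0.51). Atoh8, also not called, lay higher per kilobase.

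The ID proteins act on helix-loop-helix factors, and all 7 of the listed myogenic factors and E proteins were tested. With ET-3, 1 rose and 4 fell by the adjusted p alone, and with NT 1 rose and 6 fell, with 2 called lower in each and medians of -0.381 and -0.45. Myog, which drives terminal differentiation, had values of 1157 and 1335, 31 and 38, and 31 and 28 in the DMSO, ET-3 and NT pairs, and fell with both peptides. Myf6, with 143 and 121, 15 and 8, and 15 and 12, fell likewise. Myod1 had values of 1324 and 1444 in the DMSO pair, 1539 and 1449 in the ET-3 pair, and 1192 and 1100 in the NT pair (log2 0.11 and -0.27, limma, Benjamini-Hochberg adjusted p = 0.123 and 0.00243). The E protein genes, named after their values were seen, moved in both directions and by less than 2-fold. Tcf3 rose with ET-3 and NT (log2 0.52 and 0.41), while Tcf4 (-0.81 and -0.71) and Tcf12 (-0.38 and -0.45) fell.

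Of 8 genes that process or hold BMP ligands, 6 had a row and 5 were tested. With ET-3, 2 were called higher and with NT 3, and 1 fell by the adjusted p alone with each, with medians of 1.52 and 1.572. Pcsk6, a protease that cuts BMP precursors, had values of 59 and 49, 194 and 185, and 218 and 229 (log2 1.80 and 2.04). Crim1, which holds BMP ligands at the cell surface, had values of 151 and 89, 337 and 332, and 363 and 331 (log2 1.52 and 1.57). Pcsk5 had values of 6 and 0, 10 and 8, and 8 and 17, and passed with NT (limma, Benjamini-Hochberg adjusted p = 0.0268) and missed with ET-3 (adjusted p = 0.0522), while its difference between NT and ET-3 did not pass (0.36, adjusted p = 0.854). Pcsk5 passed the filter on low values through the treated libraries, and after scaling by library total or upper quartile 3 genes of the list were called higher with ET-3 as well. Furin, the most abundant convertase, had values of 1203 to 1404.

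**Figure D5:**
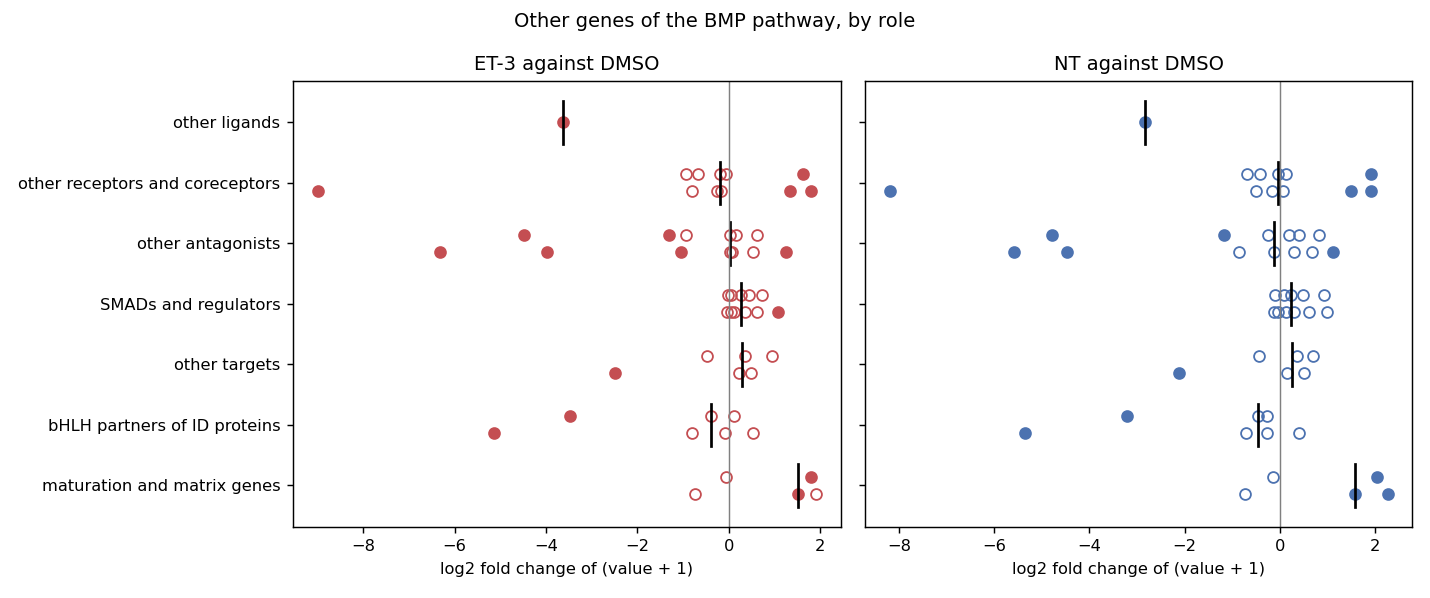
Log2 fold change against DMSO of each tested gene of the 7 pathway lists, ET-3 left and NT right, with called genes filled and a bar at each list's median. The SMAD list has medians of 0.28 and 0.233, and the antagonist and receptor lists spread to both sides.

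Markers of several other cell types moved with the treatment. Fibroadipogenic markers, 4 of 7 with a row, summed to 136 and 147 in the DMSO pair, 64 and 76 in the ET-3 pair, and 82 and 90 in the NT pair. Col15a1, with 80 and 82 against 0 or 1 in the treated libraries, carried that fall in the sum. Ly6a rose 1.77-fold and 1.97-fold (limma, Benjamini-Hochberg adjusted p = 0.0199 and 0.00884), Pdgfra rose 1.62-fold with NT (adjusted p = 0.0397), and the median log2 change of the 3 tested markers was 0.18 with ET-3 and 0.70 with NT. Markers of smooth muscle cells and pericytes summed to 2351 and 2750, 804 and 867, and 988 and 948, macrophage markers to between 21 and 45, and Schwann cell markers to between 32 and 69. Most of the smooth muscle and pericyte sum came from Notch3 and Cspg4. Notch3 had values of 1397 and 1773, 305 and 284, and 409 and 353. Cspg4 had values of 610 and 612, 433 and 509, and 497 and 508. Rgs5 had values of 117 and 150, 4 and 2, and 3 and 5, and passed the filter on low values through the DMSO libraries alone. Mcam had values of 222 and 213, 60 and 72, and 76 and 80. Of the 4 tested markers of this list, 3 were called lower with each peptide, beside 14.9% and 13.2% of all tested genes. These were Rgs5, Mcam and Notch3. Myh11 and Kcnj8 lay between 0 and 4 in all libraries, DMSO included. By the adjusted p alone, the 6 proliferation genes rose in 6 of 6 cases with each peptide, beside 30.6% and 29.7% of all tested genes. All of these changes were under 2-fold, so 0 were called. Their sums were 5095 and 5382, 7441 and 7490, and 7192 and 6817 in the DMSO, ET-3 and NT pairs. The part of these cells and states in the values of the BMP genes was not tested.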

How the data were processed

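RNA-seq of MuSCs cultured with DMSO, ET-3 or NT (2 libraries each, grouped by their labels) was analysed. The submitters' processing notes list FastQC, Trimmomatic 0.38, STAR 2.7.7a, featureCounts 1.6.5, DESeq2 1.30.0 and mm10, while the study's methods name Reaper for trimming and exonic reads on single genes. The deposited table holds a signal that the authors scaled: whole numbers equal to read counts times 1 factor per library (0.781 to 1.19152), rounded, so no count model was run and the planned test on log values was used. Differences were fitted with limma 3.58.1 (R 4.3.3, trended variance) on log2(value + 1) of the 13921 genes with a mean of at least 5. 5022 genes were left out. The floor of 3 reads covers counting error only. Same-numbered libraries did not deviate together (correlations -0.008, -0.07 and -0.022), so the numbers were not taken as pairs. Alternatives changed the scaling, pseudocount, filter, voom weights, block and libraries. Exonic lengths came from GENCODE for 18920 of the 18943 genes and promoters from RefSeq. All 10 members were named, and of each list every gene called against DMSO and the one not called with the highest mean value, not corrected for gene length. Members, lists and tests were chosen with earlier results of these data known. Scripts were tested on simulated data.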

Additional observations from a re-analysis of the deposited data

Results flagged for a closer look

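Id2 stood out because it differed between the 2 peptides. Its log2 change with NT relative to ET-3 was -0.33 (SE 0.056, limma, Benjamini-Hochberg adjusted p = 0.0379), with both NT libraries (570 and 522) below both ET-3 libraries (695 and 675) and above both DMSO libraries (411 and 418). Over the other settings tried the adjusted p ranged from 0.00822 to 0.712. With each treated library's trend against value per exonic base removed, a setting chosen after seeing the data, the difference was -0.16 (adjusted p = 0.29).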

How the results depend on the processing

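Of 414 single-gene values recomputed under the alternatives, 364 kept their side of the threshold, 44 no longer passed, 6 passed newly and 0 values past the threshold turned in sign. Of the 364, 19 had the opposite sign, all for changes that did not pass, among them 5 each for Bmp2 and Id1 with NT. The number of members called changed by more than 1.5 times in 1 setting, without the 2-fold threshold: 6 in place of 2 with ET-3, 7 in place of 3 with NT, and 1 in place of 0 between NT and ET-3, with 8873 and 8659 of all genes passing against DMSO. A move from 3 to 2 stays within that limit. With NT 2 members were called, in place of 3, with a pseudocount of 0.5 or 5, with the replicate block and with the 2 groups alone. Between NT and ET-3 the calls over all genes numbered 11 and ran from 0 to 16 over the settings that kept the 2-fold threshold. With the replicate block, Bmp4 with NT (adjusted p = 0.0596) and Id2 between NT and ET-3 (adjusted p = 0.0691) no longer passed, and no other member's call changed. With each treated pair counted as 1 sample, Smad6 (log2 -0.608 and -0.554) and Bmpr1a (-0.232 and -0.197) no longer passed with either peptide. The spread in that setting came from the DMSO libraries alone. Scaling each library to its total moved the median of all genes to 0.079 with ET-3 and 0.099 with NT. With 2 libraries per group, values under about 10, such as those of Bmp2, Bmp4 and Bmp7, are limited by read number.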
